A study of Mus musculus with 6 samples.

Results

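Lymphocyte transcripts were examined in bulk RNA from mouse mammary tumors through 38 genes that mark T cells, natural killer (NK) cells, B cells and plasma cells, out of 54232 gene identifiers counted. The genes were a listed set, found in the count files by symbol, and all 38 had a row. RNA came from 6 samples of tumors carrying the NIC transgene. This transgene is an activated form of the receptor ErbB2 (Neu) linked to Cre recombinase. It is expressed in mammary epithelium from the promoter of mouse mammary tumor virus (MMTV). In 3 libraries, called wt1, wt2 and wt3, the tumors were CdGAP wt/wt, and in 3, called fx1, fx2 and fx3, they were CdGAP fx/fx. CdGAP is the product of Arhgap31 and switches off the GTPases Rac1 and Cdc42. Each copy of the gene in an fx/fx animal carries sites that Cre can recombine. Because Cre is under the same mammary promoter as the oncogene, the design aims the deletion at the tumor epithelium. Lymphocytes in an fx/fx tumor come from an animal with the same alleles, and whether they kept the gene was not tested. Age and strain of the mice are not given in the sources used here, and the labels do not say that each library came from its own animal, so each p-value reflects only how these samples vary, which may be technical.

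T cells recognise antigen through a receptor whose signal is carried by the CD3 chains and the kinases Lck and Zap70, with CD4 or CD8 as coreceptor. Cytotoxic T cells and NK cells kill with granzymes and perforin. B cells signal through CD79A and CD79B, and plasma cells secrete antibody, which the joining chain (Jchain) links into polymers. In tumors driven by ErbB2 these cells are studied as a measure of immune infiltration.

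The libraries held between 36732137 (fx2) and 53606276 (fx1) counts. Levels are given in CPM, the counts of a gene relative to all counts of its library, scaled by the trimmed mean of M-values (TMM), and 3 counts, taken as the limit behind a count of 0, stood for between 0.0565 and 0.0803 CPM, which covers counting error only. Arhgap31 was lower in each fx/fx library than in each wt/wt library, at 549 ± 116 against 105 ± 56.5 CPM (SD, n = 3 each; log2 fold change -2.38, SE 0.45; edgeR adjusted p = 0.153; exact 2-sided permutation p = 0.1, the smallest that 3 against 3 samples allow). At an adjusted p under 0.05, edgeR called 0 of 16752 genes and DESeq2 831, which is 4.97% of those it tested, while 14.2% of genes had an unadjusted edgeR p under 0.05. The tumors were epithelial by their markers, with 8 luminal genes (among them Epcam, Krt18 and Cldn3) summing to between 3775 and 5165 CPM, and 12 macrophage genes summing to between 336 and 753 CPM. All 38 lymphocyte genes together summed to between 15.7 and 56.6 CPM.

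To show the regulatory sequence in front of the genes that the values below turn on, 150 bases before the RefSeq start are printed for the 3 CD3 genes of chromosome 9 and for the granzyme gene Gzmb, the member with the highest level per length. They come from the RefSeq table on GRCm38.p6, 5′ to 3′ on the strand of the gene. Capitals mark GGAA (or TTCC on the other strand), the core bound by ETS factors and shared with sites of NFAT, and TGTGGT (or ACCACA), the core bound by RUNX factors. These factor families are active in T and NK cells.
Cd3g (chr9:44980432-44980581, minus strand): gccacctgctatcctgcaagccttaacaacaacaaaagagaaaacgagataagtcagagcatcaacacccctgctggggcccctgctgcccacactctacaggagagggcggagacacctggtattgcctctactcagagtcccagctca
Cd3d (chr9:44981636-44981785, plus strand): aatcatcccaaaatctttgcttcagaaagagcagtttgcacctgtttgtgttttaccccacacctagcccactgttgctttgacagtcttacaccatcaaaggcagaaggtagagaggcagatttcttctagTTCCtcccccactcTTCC
Cd3e (chr9:45009612-45009761, minus strand): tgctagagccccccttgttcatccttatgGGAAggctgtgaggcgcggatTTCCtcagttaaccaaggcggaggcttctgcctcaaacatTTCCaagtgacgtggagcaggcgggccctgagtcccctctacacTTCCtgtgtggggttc
Gzmb (chr14:56262335-56262484, minus strand): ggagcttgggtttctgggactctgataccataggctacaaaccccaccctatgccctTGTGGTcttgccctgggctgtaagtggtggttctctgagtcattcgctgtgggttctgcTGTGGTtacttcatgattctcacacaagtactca

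Cd3e held 4 GGAA matches and Cd3d 2, while the window of Cd3g held 0 of either motif and that of Gzmb 2 of TGTGGT. The table had a window for 30 of the 38 genes, 36 windows in all because some genes have more than 1 start. TGTGGT was present in 11 of these 36 windows (30.6%) and in 8.40% of all 32851 windows of this length. The genes with it were Gzma, Gzmb, Prf1, Nkg7, Ncr1, Klrk1, Klrb1c, Tigit, Lck and Zap70. GGAA was present in 80.6% of member windows and 80.8% of all windows. A match is a string of letters and not a measured site, and windows of 1 gene can overlap.

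Of the 38 genes, 27 passed the filter on low counts and were tested, and 11 did not. None of the 27 passed the test: edgeR, DESeq2 and limma-voom each called 0, beside 0% of all genes by edgeR, 4.97% by DESeq2 and 0% by limma-voom. At an unadjusted p under 0.05 there were 0 by edgeR and by DESeq2 and 1 (Pdcd1) by limma-voom, beside 14.2%, 16% and 14.3% of all genes. The smallest edgeR adjusted p was 0.407. The genotypes overlapped for each of the 27 genes, so 0 were separated, against 19.7% of all genes tested (9.74% higher and 9.93% lower in fx/fx) and 21.6% of those with a mean no higher than that of Gzmb. Fold changes, given as log2 of fx/fx over wt/wt, were below 0 for 17 and above 0 for 10, with a median of -0.28, against 50.4% below 0 and a median of -0.00 over all genes. This median turned to 0.23 without wt1 and to 0.14 without fx3, and it was -0.72 without wt3. In bulk RNA, fewer cells of a type and less RNA per cell cannot be told apart.

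**Figure D1:**
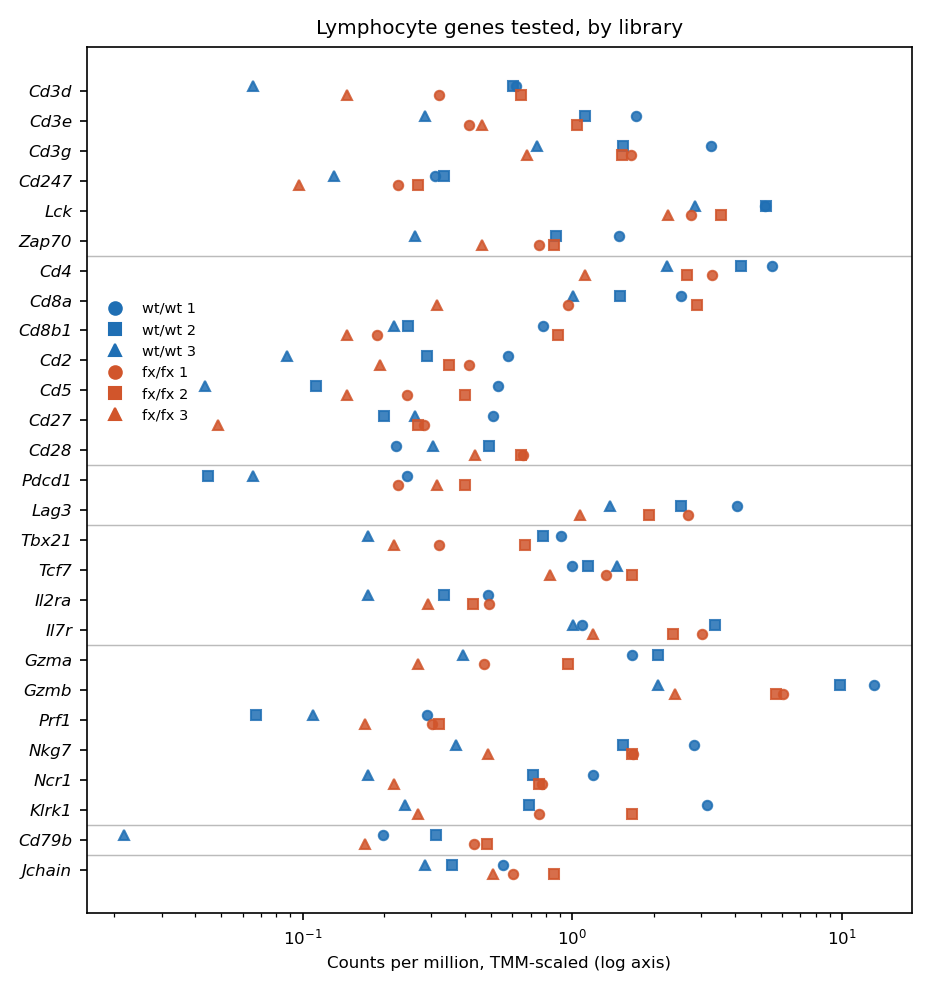
Level of the 27 lymphocyte genes tested (rows, grouped by role) in TMM-scaled CPM on a log axis, 1 point per library, wt/wt in blue and fx/fx in orange. The colors overlap in every row, and triangles (wt3 and fx3) lie at the left in most rows.

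Levels differed widely between the 6 libraries. Among the 27 genes tested, 13 were highest in wt1 and 8 in fx2, while 14 were lowest in wt3 and 10 in fx3. The ratio of the highest to the lowest library had a median of 6.07, and the SD over the 6 libraries exceeded 50% of the mean for 19 of the 27. Ptprc (CD45), the phosphatase on all leukocytes, followed a like order at 29.8, 21.1 and 10.8 CPM across wt1 to wt3 and 22.1, 29.4 and 10.1 CPM across fx1 to fx3. Its genotype means were nearly equal, at 20.6 ± 9.52 and 20.5 ± 9.78 CPM (n = 3 each). Macrophage genes were also lowest in fx3 (336 CPM summed) and highest in fx2 (753 CPM), but wt3, at 501 CPM, was close to wt2 at 551 CPM. Mitochondrial genes made 1.85%, 1.81% and 2.25% of counts across wt1 to wt3 and 1.97%, 1.86% and 2.93% across fx1 to fx3. This share was thus highest in wt3 and fx3 within their genotypes, and its relation to the leukocyte values was not tested.

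**Figure D2:**
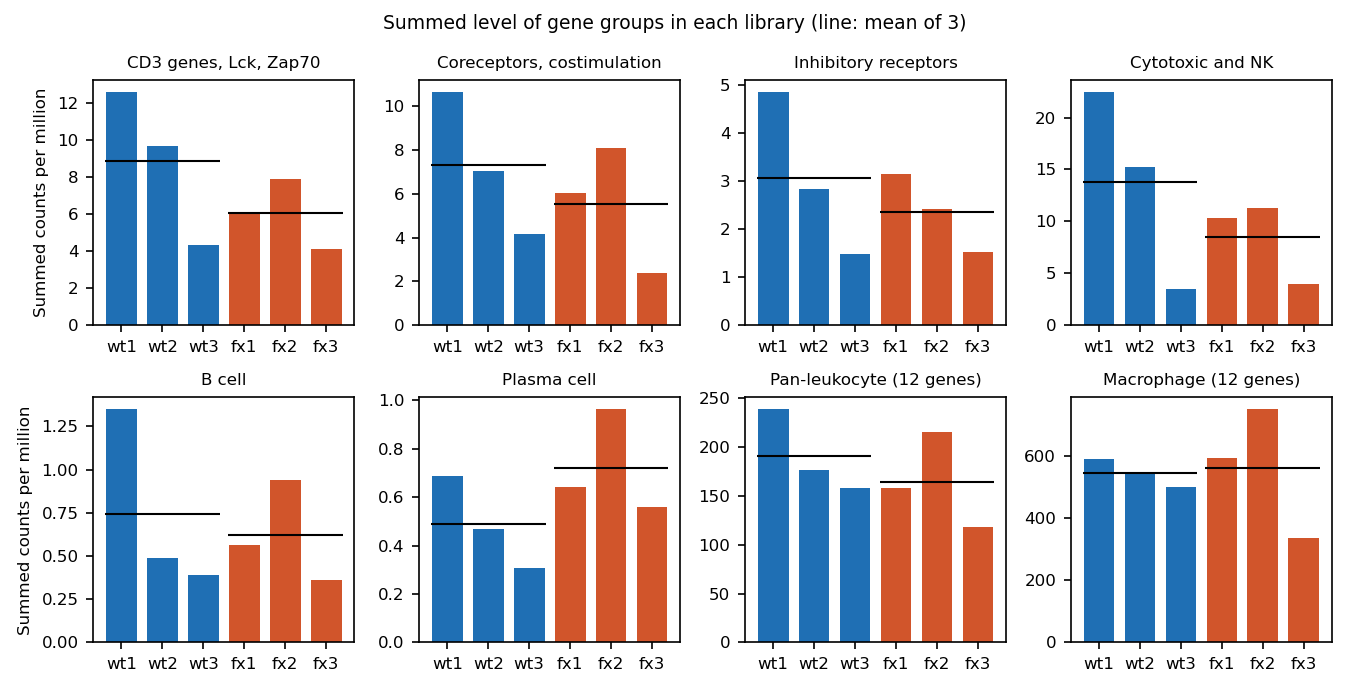
Summed TMM-scaled CPM of gene groups in each library, with bars from 0 and a line at the mean of the 3 libraries of a genotype. wt3 and fx3 are the lowest of their genotype in all 8 panels, and cytotoxic and NK genes range from 3.49 CPM in wt3 to 22.5 CPM in wt1.

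The CD3 chains and their kinases were low throughout, and all 6 had a fold change below 0 without passing the test. Without wt1, 3 of them lay above 0, with log2 fold changes of 0.14 for Cd3d, 0.17 for Cd3g and 0.28 for Zap70. Cd3g (ENSMUSG00000002033, chromosome 9, 44969572 to 44980431, GRCm38), which encodes CD3 gamma, measured 3.28, 1.54 and 0.742 CPM across wt1 to wt3, in that order, and 1.66, 1.53 and 0.679 CPM across fx1 to fx3. Cd3e (ENSMUSG00000032093, chromosome 9, 44998740 to 45009627), which encodes CD3 epsilon, measured 1.73, 1.12 and 0.284 CPM across wt1 to wt3 and 0.414, 1.04 and 0.461 CPM across fx1 to fx3. For both genes wt1 was the highest library, and the range of each genotype covered values of the other. Their log2 fold changes were -0.52 (SE 0.61, edgeR adjusted p = 0.755) for Cd3g and -0.71 (SE 0.69, edgeR adjusted p = 0.697) for Cd3e. The 95% interval of Cd3e ran from -2.33 to 0.90, which includes lower as well as higher levels in fx/fx.

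Cd3d had between 3 counts (wt3) and 28 counts (wt1) per library, and Cd247, which encodes the zeta chain, between 4 (fx3) and 15 (wt2). Cd3g and Cd3d lie head to head on chromosome 9 with 1354 bases between them, and Cd3e lies 11400 bases past Cd3d. Per length, Cd3g was the most abundant of the 4 chains, at a mean of 0.481 RPKM (CPM per kilobase of exon), then Cd3d (0.220), Cd3e (0.206) and Cd247 (0.0428).

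Lck, the kinase bound to CD4 and CD8, was the most abundant gene of the T cell receptor group, with a mean of 1.24 RPKM. It measured 5.19, 5.23 and 2.84 CPM across wt1 to wt3 and 2.75, 3.56 and 2.26 CPM across fx1 to fx3. The genotypes overlapped only through wt3, which lay between fx1 and fx2. The means were 4.42 ± 1.37 and 2.86 ± 0.660 CPM (n = 3 each), with a log2 fold change of -0.63 (SE 0.38, edgeR adjusted p = 0.502). Its SE was the smallest among the members, and its 95% interval ran from -1.51 to 0.25. Zap70, the kinase that binds the phosphorylated CD3 chains, had between 12 counts (wt3) and 67 counts (wt1) and a log2 fold change of -0.34 (SE 0.63).

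Among coreceptors, Cd4 (ENSMUSG00000023274, chromosome 6, 124864692 to 124888221) measured 5.52, 4.22 and 2.25 CPM across wt1 to wt3 and 3.29, 2.65 and 1.12 CPM across fx1 to fx3. Only wt3 lay inside the fx/fx range, and the difference did not pass (log2 fold change -0.76, SE 0.52, edgeR adjusted p = 0.550). Cd4 marks helper T cells, and some macrophages and dendritic cells also carry it. Cd8a, which with Cd8b1 marks cytotoxic T cells, measured 2.53, 1.5 and 1.0 CPM across wt1 to wt3 and 0.960, 2.89 and 0.315 CPM across fx1 to fx3. Here the highest and the lowest library, fx2 and fx3, were both fx/fx, and the log2 fold change was -0.28 (SE 0.76, edgeR adjusted p = 0.906). Cd8b1 followed the same order at its ends, with 35 counts in wt1, 33 in fx2 and between 6 and 11 in the other 4 libraries.

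The balance of CD8 against CD4 transcripts set fx2 apart from the other libraries. Of the counts of Cd8a and Cd4 together, Cd8a made 52.2% in fx2 (exact Clopper-Pearson 95% interval 45.1% to 59.1%). In the other libraries it made between 22.0% (fx3, 12.3% to 34.7%) and 31.4% (wt1, 26.7% to 36.5%), and none of their intervals reached that of fx2. Cd8b1 made 25.0% of its counts with Cd4 in fx2 (17.9% to 33.3%) and between 5.41% (fx1) and 12.3% (wt1) elsewhere, with an interval in fx3 (4.35% to 23.4%) that overlapped the one in fx2. These intervals cover counting error only. For Cd8a, fx1 and fx3 lay below the 3 wt/wt libraries and fx2 above them, so the share did not separate the genotypes.

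**Figure D3:**
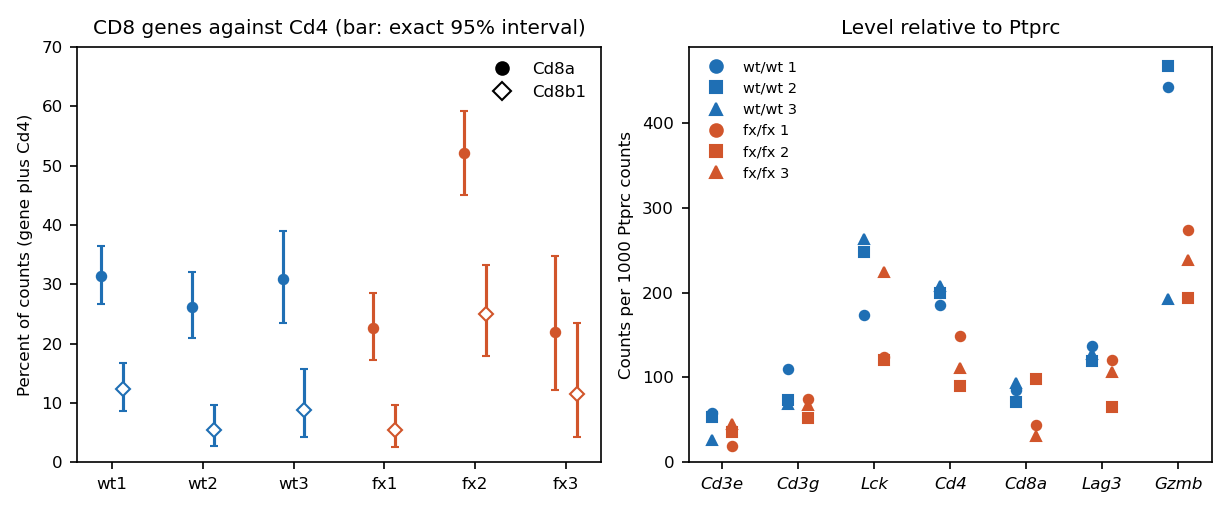
Left, percent of counts from Cd8a (filled circles) or Cd8b1 (open diamonds) among their sum with Cd4 in each library, with exact 95% intervals for counting error. Right, counts of 7 lymphocyte genes per 1000 Ptprc counts of the same library, 1 point per library. fx2 stands at 52.2% for Cd8a, and for Cd4 the 3 blue points (185 to 208) lie above the 3 orange ones (90.1 to 149).

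The adhesion and costimulatory receptors were lower still. Cd2, which adheres T cells to their targets, had between 4 and 26 counts per library, Cd5, which dampens receptor signals, between 2 and 24, and Cd27 between 2 and 23. Their log2 fold changes were 0.01, 0.19 and -0.68, with SEs from 0.68 to 0.87. Cd28, the main costimulatory receptor, had 10, 22 and 14 counts in wt1, wt2 and wt3 and 35, 24 and 18 in fx1, fx2 and fx3. It was lowest in wt1, the library in which 13 of the other tested genes were highest (log2 fold change 0.77, SE 0.46, edgeR adjusted p = 0.495).

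Of the inhibitory receptors, Lag3 was the most abundant and Ctla4 was close to the limit of detection. Lag3, which binds MHC class II molecules, measured 4.08, 2.52 and 1.38 CPM across wt1 to wt3 and 2.67, 1.93 and 1.07 CPM across fx1 to fx3. Its order over the libraries was that of Cd4, its neighbour at 16139 bases on chromosome 6, within each genotype, and its log2 fold change was -0.49 (SE 0.52, edgeR adjusted p = 0.727). Pdcd1, which encodes PD-1, had 11, 2 and 3 counts in wt/wt and 12, 15 and 13 in fx/fx. It had the smallest edgeR p of the members, 0.0762, and did not pass (log2 fold change 1.38, SE 0.68, 95% interval -0.19 to 2.99, edgeR adjusted p = 0.407, limma-voom adjusted p = 0.328). Only wt1, at 0.244 CPM, overlapped the fx/fx libraries, which lay between 0.226 and 0.402 CPM. Tigit had between 1 count (wt3) and 23 counts (wt1), and Ctla4 had 1, 2 and 1 counts in wt/wt and 1, 0 and 0 in fx/fx, so both stayed untested.

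Transcription factors of lymphocyte subsets were scarce. Foxp3, which defines regulatory T cells, had between 1 and 7 counts per library, and Eomes, a factor of NK and memory T cells, between 6 and 17, and both stayed untested. Tbx21, which encodes T-bet, the factor of interferon-producing T and NK cells, had between 8 (wt3) and 41 (wt1) counts and a log2 fold change of -0.63 (SE 0.70). Tcf7, the factor of naive and stem-like T cells, was the member with the least spread over the 6 libraries (SD 25.0% of the mean), at 0.997, 1.14 and 1.46 CPM across wt1 to wt3 and 1.34, 1.66 and 0.825 CPM across fx1 to fx3. Unlike the CD3 genes, it was highest among wt/wt in wt3. Tcf7 is not restricted to lymphocytes, and its source in these tumors was not tested.

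The cytokine receptors differed from each other in their order over the libraries. Il7r, the receptor chain for the survival cytokine IL-7, measured 1.09, 3.37 and 1.0 CPM across wt1 to wt3 and 3.01, 2.36 and 1.19 CPM across fx1 to fx3, with wt2 highest and wt1 near the lowest. Il2ra, the alpha chain of the IL-2 receptor, had between 8 counts (wt3) and 26 counts (fx1) and ran from high to low across wt1 to wt3 and across fx1 to fx3, as Cd3g did. Neither passed, with log2 fold changes of 0.26 (SE 0.60) and 0.28 (SE 0.50).

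The granzyme Gzmb gave the strongest lymphocyte signal per length. Gzmb (ENSMUSG00000015437, chromosome 14, 56258838 to 56262260), a protease of killer cell granules, measured 13.2, 9.85 and 2.07 CPM across wt1 to wt3 and 6.04, 5.70 and 2.4 CPM across fx1 to fx3. Per length it reached a mean of 4.56 RPKM, above Nkg7 (1.56), Lck (1.24), Lag3 (1.08) and Gzma (0.967). From high to low the libraries stood in the order wt1, wt2, fx1, fx2, fx3 and wt3, with fx1 close to fx2 and fx3 close to wt3. The means of 8.37 ± 5.70 and 4.72 ± 2.01 CPM (n = 3 each) gave a log2 fold change of -0.83 (SE 0.66, edgeR adjusted p = 0.624).

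Gzma, another granule protease, measured 1.66, 2.08 and 0.393 CPM across wt1 to wt3 and 0.471, 0.964 and 0.267 CPM across fx1 to fx3. Again wt3 alone overlapped the fx/fx range, and Gzma had the most negative fold change of the members (log2 -1.28, SE 0.71, 95% interval -2.95 to 0.37, edgeR adjusted p = 0.462). Gzmb made between 82.6% (wt2) and 92.8% (fx1) of the counts of both granzymes. Nkg7, a granule membrane protein, measured 2.81, 1.54 and 0.371 CPM across wt1 to wt3 and 1.68, 1.66 and 0.485 CPM across fx1 to fx3, and its log2 fold change was -0.30 (SE 0.76). Prf1, which encodes the pore former perforin, had only between 3 and 16 counts per library and a log2 fold change of 0.76 (SE 0.63), on the other side of 0 from both granzymes. Ifng, the cytokine of activated T and NK cells, had 1, 5 and 0 counts in wt/wt and 0, 0 and 1 in fx/fx.

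Of the NK receptors, Klrk1, which encodes NKG2D, had the widest spread over the 6 libraries among the tested members. It measured 3.17, 0.692 and 0.240 CPM across wt1 to wt3 and 0.753, 1.66 and 0.267 CPM across fx1 to fx3, so that wt1 held almost as much as the other 5 libraries together. Its SE of 0.97 on the log2 scale was the largest of the members, and the fold change of -0.62 turned to 0.93 without wt1. Ncr1, which encodes the NK receptor NKp46, had 54, 32 and 8 counts in wt/wt and 41, 28 and 9 in fx/fx, with wt3 and fx3 lowest as for the granzymes. Klrb1c, which encodes NK1.1, had between 6 and 14 counts in each library, and an untested gene at that level shows no order.

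**Figure D4:**
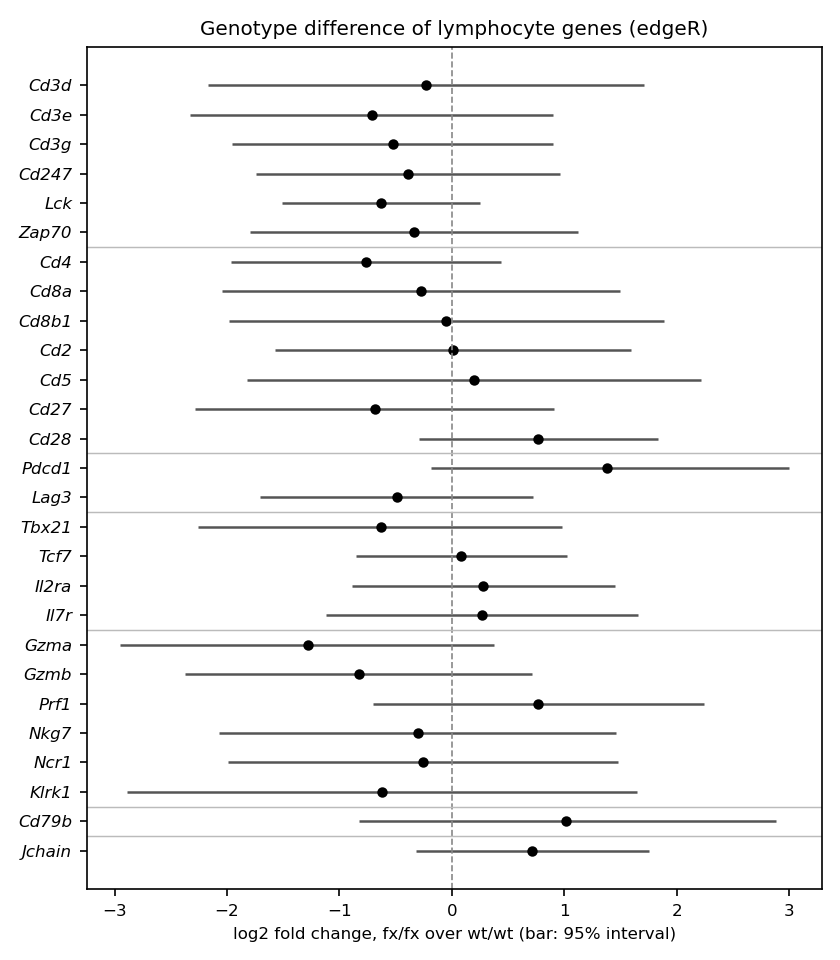
log2 fold change of fx/fx over wt/wt for the 27 lymphocyte genes tested (points) with the edgeR 95% interval (bars), in the order of their roles. All 27 intervals include 0, and 10 of them reach past both -1 and 1.

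B cell genes were low. Ms4a1 (CD20) had between 1 and 4 counts per library and Cd79a between 0 (wt1) and 6, where 0 counts allow up to 0.0665 CPM. Cd79b, the partner of CD79A in the B cell receptor, had 9, 14 and 1 counts in wt1, wt2 and wt3 and 23, 18 and 7 in fx1, fx2 and fx3. It was the only B cell gene tested and did not pass (log2 fold change 1.02, SE 0.80, edgeR adjusted p = 0.611). Pax5, the factor of B cell identity, was singled out after its values were seen: it had 49 counts in wt1 but 1 and 10 in wt2 and wt3 and 1, 10 and 1 in fx1, fx2 and fx3. In wt1 Cd79a had 0 and Ms4a1 3 counts, while the companion genes Pou2af1 (483 counts), Blnk (1165) and Cd22 (141) were, like Pax5, at their highest CPM there. The source of the Pax5 reads was not tested.

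Plasma cell genes were also low. Jchain had 25, 16 and 13 counts in wt/wt and 32, 32 and 21 in fx/fx, or 0.398 ± 0.140 against 0.656 ± 0.180 CPM (n = 3 each), with a log2 fold change of 0.71 (SE 0.44, edgeR adjusted p = 0.513). Only wt1, at 0.554 CPM, overlapped the fx/fx range of 0.509 to 0.857 CPM. Mzb1, an endoplasmic reticulum protein of antibody-secreting cells, had between 1 and 6 counts, and Tnfrsf17, which encodes the survival receptor BCMA, between 0 and 2. The 7 B and plasma cell genes together summed to 1.23 ± 0.710 CPM for wt/wt and 1.34 ± 0.504 CPM for fx/fx (SD, n = 3 each).

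Set against Ptprc of the same library, the lymphocyte genes changed order. This scaling was chosen after the data were seen. Per 1000 Ptprc counts, Cd4 stood at 185, 200 and 208 in wt1, wt2 and wt3 and at 149, 90.1 and 111 in fx1, fx2 and fx3. The genotypes did not overlap here (197.7 ± 11.7 against 117 ± 30.1, n = 3 each; exact 2-sided permutation p = 0.1, the smallest possible). wt3, which had the fewest reads of Cd4 among wt/wt, had the most relative to Ptprc. Lck stood at 174, 248 and 263 in wt/wt and 125, 121 and 224 in fx/fx, and Gzmb at 442, 467 and 192 against 274, 194 and 239, and both overlapped.

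On this scale 7 of the 27 genes were separated. Cd4, Gzma and Cd247 were lower in fx/fx, and Pdcd1, Prf1, Cd79b and Jchain were higher. Of all genes, 4.57% were separated (1.73% lower and 2.84% higher), a share that covers genes of all cell types and not leukocyte genes alone. In CPM that share was 19.7%, so it depends on the scaling, and Ptprc itself ran from 10.1 to 29.8 CPM. Whether 7 of 27 is an excess was not tested. Of the 7, Cd247, Pdcd1, Prf1 and Cd79b had at most 23 counts in any library.

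Companion genes of the same cell types, listed apart from the 38, gave a like picture, with 0 called by edgeR in each list. Of 26 T cell companions 22 were tested, 14 below and 8 above 0 (median -0.16), with 1 at an unadjusted edgeR p under 0.05 and higher in fx/fx (8.18% of all genes). That gene was Thy1 (means of 8.74 ± 1.93 and 16.2 ± 5.24 CPM with a log2 fold change of 0.89, edgeR adjusted p = 0.300), which fibroblasts also carry. Among the highest per length were Gata3 (62.8 RPKM) and Thy1 (4.16), and luminal mammary cells also express Gata3. Grap2, an adaptor of the T cell receptor, was also among the smallest p (log2 fold change 0.96, edgeR adjusted p = 0.532). Trac, the constant region of the T cell receptor alpha chain, had between 10 and 50 counts per library. The constant regions Trbc1 and Trbc2 are near-identical copies whose reads the counting can lose or split.

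Of 16 NK and cytotoxic companions 10 were tested, 7 below and 3 above 0 (median -0.41). The chemokines Xcl1 (3.03 RPKM) and Ccl5 (2.54 RPKM) and the protease Ctsw (1.69 RPKM) were the most abundant. Klrb1b, an inhibitory NK receptor, measured 0.421, 0.223 and 0.0873 CPM across wt1 to wt3 and 0.640, 0.589 and 0.922 CPM across fx1 to fx3. The genotypes were separated, as for 19.7% of all genes tested, but the difference did not pass (log2 fold change 1.55, SE 0.59, edgeR adjusted p = 0.302). Cst7, a protease inhibitor of cytotoxic granules, had a log2 fold change of -1.30 (edgeR adjusted p = 0.387), and Gzmc one of 0.75 (edgeR adjusted p = 0.672).

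Of 17 B cell companions 9 were tested, 5 above and 4 below 0 (median 0.10), and the list held genes at very different levels. Of the untested, Cr2, Blk, Vpreb3, Fcer2a, Fcrla and Fcmr had at most 5 counts in any library and Spib at most 10. Cd22, an inhibitory receptor of B cells, had between 19 counts (fx3) and 141 counts (wt1), with a log2 fold change of -0.54 (edgeR adjusted p = 0.738). The most abundant were Blnk (2.00 RPKM), Pou2af1 (1.72) and Bcl11a (1.4), and their cell of origin was not tested. Ebf1, a B cell factor that mesenchymal and fat cells also use, measured 2.6 ± 0.322 against 5.83 ± 2.06 CPM (n = 3 each; log2 fold change 1.16; adjusted p = 0.249 by edgeR and 0.0512 by DESeq2). Bank1, an adaptor of B cell receptor signalling, measured 3.17, 0.715 and 4.54 CPM across wt1 to wt3 and 0.489, 0.75 and 0.849 CPM across fx1 to fx3, with wt2 inside the fx/fx range (log2 fold change -2.01; adjusted p = 0.257 by edgeR and 0.0492 by DESeq2, which passes). Cd72 had between 37 and 239 counts and a log2 fold change of 1.41 (edgeR adjusted p = 0.375).

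Of 17 plasma cell companions 11 were tested, 5 above and 6 below 0 (median -0.11). Xbp1 (469 RPKM), Derl3 (14.4) and Sdc1 (13.6) led by level, and secretory and epithelial cells also express them. Irf4 had the smallest p (log2 fold change 1.09, edgeR adjusted p = 0.424), then Fkbp11 (-0.54, edgeR adjusted p = 0.463) and Igkc, the kappa light chain constant region (0.87, edgeR adjusted p = 0.476). The 11 immunoglobulin constant genes summed to 17.8, 6.46 and 5.74 CPM across wt1 to wt3 and 17.2, 19.6 and 8.17 CPM across fx1 to fx3. Ighm was the largest of them in each library, with 549, 159 and 156 counts in wt/wt and 641, 438 and 166 in fx/fx. Unlike the CD3 genes, this sum was as high in fx1 and fx2 as in wt1.

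Of 8 markers of a lymph node caught with the tumor, 6 were too low to be tested. Ccl19 and Ccl21a had 0 counts in each library, but both have a near-identical copy whose reads the counting can lose. Cxcl13, the chemokine of B cell follicles, had between 1 and 6 counts, Glycam1 at most 3 and Madcam1 at most 2. Tnfsf11, the cytokine RANKL, which mammary epithelium also makes, had 2, 0 and 0 counts across wt1 to wt3 and 8, 11 and 10 across fx1 to fx3. It was the 1 gene of the list whose genotypes did not overlap. Tnfsf11 was itself too low to be tested, while the 19.7% of genes that did not overlap are a share of tested genes only. Ltb and Cd83, which other leukocytes also express, were tested, with log2 fold changes of -0.49 and 0.11.

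Other leukocytes and stroma were measured beside the lymphocyte genes. Of 12 pan-leukocyte genes 5 lay above and 7 below 0 (median -0.04), and their sum ran from 118 CPM (fx3) to 239 CPM (wt1). Laptm5 (12.9 RPKM) and Arhgdib (8.63 RPKM) led by level, and Itgal and Ptprcap had log2 fold changes of -0.39 and -0.29. Of 12 macrophage genes, led by Lyz2, C1qa and C1qb, 8 lay above 0 (median 0.04). Cd163 (log2 fold change 1.41, edgeR adjusted p = 0.185) was called by DESeq2 (adjusted p = 0.00239), and Mrc1 (0.87) was not. Of 9 dendritic cell genes 7 were tested and 5 lay above 0 (median 0.26), with Itgax, Batf3, Cd209a and Siglech not called. Luminal genes had a median of 0.08 over 8, of which DESeq2 called Krt19. Stromal lists had higher medians in fx/fx, at 1.39 for 10 fibroblast genes, 0.75 for 8 endothelial genes and 2.46 for 7 adipocyte genes. It was 0.84 for 6 basal epithelial genes and 2.17 for the 5 of 6 mast cell genes tested. The sum of the mast cell list went the other way, at 1012 ± 381 CPM for wt/wt against 637 ± 88.7 CPM for fx/fx. Without Kit this sum was 0.900 ± 0.306 against 4.21 ± 0.803 CPM (SD, n = 3 each). Of these lists DESeq2 called 6, 0, 3, 1 and 3 genes, beside 4.97% of all genes, and edgeR 0, beside 0%. At an unadjusted edgeR p under 0.05 there were 9, 5, 4, 2 and 4, all higher in fx/fx, beside 8.18% of all genes. Fibroblast genes summed to between 306 and 528 CPM in wt/wt and between 823 and 1511 CPM in fx/fx. The part that this difference in stroma has in the lymphocyte values was not tested.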

How the data were processed

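Total RNA of 6 tumor samples was sequenced by the authors, 3 CdGAP wt/wt and 3 CdGAP fx/fx, with genotype and replicate number taken from the sample titles. Per the file headers, the deposited values are raw counts of read pairs per gene, made by the authors with featureCounts 1.6.0 (1.4.6 in the submitters' processing notes) on Ensembl 93 of GRCm38, with both ends aligned, chimeric pairs left out and strand option 2. The notes also name STAR 2.5.1b. No option for reads with several alignments appears, so near-identical genes can lose reads. GENCODE M21 (GRCm38) gave symbols for 54165 of 54232 identifiers.

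The comparison of genotypes used edgeR 4.0.16 under R 4.3.3 (filterByExpr, TMM, quasi-likelihood test with robust=TRUE, 2-sided), with Benjamini-Hochberg adjustment over all 16752 genes tested and 0.05 as threshold. Intervals are 95% intervals of the fitted coefficient, RPKM is CPM per kilobase of the length in the files, and SDs are over 3 libraries. Alternatives were DESeq2 1.42.0, limma-voom (limma 3.58.1), other scaling factors and filters, the replicate number as a block, and each library left out. The steps were tested on simulated counts.

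The 38 genes, the companion lists, tests and alternatives were chosen with earlier results of these data known. Values in every library are given for the 12 members whose higher genotype averaged 1 CPM or more, and for some others chosen after their values were seen. Other members are given as counts. Of each lymphocyte and leukocyte list, the 3 genes with the highest RPKM and up to 3 with the smallest p were named, and other lists are given as counts. Some genes that this rule names are not reported here.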

Additional observations from a re-analysis of the deposited data

How the results depend on the processing

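No lymphocyte gene was called under any of the 13 alternatives, whose smallest adjusted p for a member ran from 0.293 (without fx2) to 0.581 (without fx1). The count over all genes was 0 by edgeR, 831 by DESeq2 and 38 without the filter on low counts, and between 0 and 2 with a library left out. Arhgap31 passed with DESeq2 (log2 fold change -2.40). The median over the members tested ran from -0.72 (without wt3) to 0.23 (without wt1) with a library left out, and from -0.52 to -0.07 under the other alternatives, where the lowest came from the filter of 1 CPM in 3 libraries, which left 10 members. Members whose genotypes do not overlap rose from 0 to 7 per Ptprc count, where the share of all genes fell from 19.7% to 4.57%. Leaving out a library, so that fewer samples can overlap, gave between 1 and 8 such members. Those are between 3.7% (without fx1) and 29.6% (without wt3) of the 27 members, where 26.1% and 29.6% of all genes did not overlap under the same omissions, and in the other 4 omissions the members' share was below that of all genes. Of the 27 genes, 14 kept the sign of their fold change under each alternative that tested them. The other 13 turned when a library was left out. They ranged over -0.85 to 0.16 (Cd3d), -0.91 to 0.17 (Cd3g), -0.78 to 0.28 (Zap70), -1.38 to 0.21 (Cd8a), -1.28 to 0.78 (Cd8b1), -0.44 to 0.76 (Cd2), -0.30 to 1.72 (Cd5), -0.15 to 0.34 (Tcf7), -0.036 to 0.66 (Il2ra), -0.047 to 1.06 (Il7r), -0.78 to 0.42 (Nkg7), -0.72 to 0.39 (Ncr1) and -1.40 to 0.93 (Klrk1). Cd3d was 0.062 with limma-voom, and Cd2 was -0.00069 with DESeq2 and -0.015 with upper-quartile factors. The cause of these turns was not tested beyond the library left out.

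With the replicate number as a block, 0 lymphocyte genes and 0 of all genes were called, the members' median was -0.12, and Gzma had an unadjusted p under 0.05, as it and Gzmb had without wt3. Same-numbered libraries had correlations of deviations over all genes tested of -0.085, -0.095 and 0.057, and 0 of 3 correlated best with its own number. Whether same-numbered samples also shared a batch was not tested. Depth limits the 12 tested members with under 10 counts in some library.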

Other observations

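Ikzf1, which encodes the lymphocyte transcription factor Ikaros, did not follow the other leukocyte genes. It had 2554, 1567 and 2716 counts in wt1, wt2 and wt3 and 826, 1057 and 1294 in fx1, fx2 and fx3, where Ptprc had 1346, 945 and 495 and 1172, 1099 and 415. It was therefore highest in wt3, a library in which Ptprc and most lymphocyte genes were near their lowest. Its mean was 50.3 ± 13.3 CPM for wt/wt against 25.1 ± 8.40 CPM for fx/fx (SD, n = 3 each). It was the 1 gene of the 12 pan-leukocyte genes separated between the genotypes, where 19.7% of all genes tested were separated. The difference did not pass (log2 fold change -1.0, SE 0.32; adjusted p = 0.245 by edgeR and 0.0820 by DESeq2). Pou2af1, a coactivator named for B cells, spread from 8 counts in fx3 to 483 in wt1, with 24 in wt2 and between 212 and 232 in wt3, fx1 and fx2. Both genes were chosen after their values were seen, and their cell of origin was not tested.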
